A study of Mus musculus with 8 samples.

Results

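The 9 genes described here encode parts of the B cell receptor complex and of the MHC class II pathway: *Cd79a*, *Cd79b*, *Cd22*, *Cd74*, *H2-Aa*, *H2-Ab1*, *H2-Eb1*, *H2-DMa* and *Ciita*. They are 9 of the 37074 gene names on the array. Every spot that is not a control and carries 1 of these names was taken, which gave 18 probes of 56605. Of these, 13 were among the 33819 probes that lay well above background on at least 4 of 8 arrays and were tested, and 8 of the 9 genes had at least 1 of them. The genes were chosen by the difference between Pg and Co signals on these same arrays, so their values in both groups are a description and carry no test. A p or q printed for them describes the fit and is not evidence of a difference.

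The B cell receptor is a membrane antibody that signals through the paired chains Cd79a and Cd79b, and Cd22 is an inhibitory co-receptor that dampens that signal. MHC class II molecules are pairs of an alpha and a beta chain that present peptides to CD4 T cells on B cells, dendritic cells and macrophages. The invariant chain Cd74 guides them through the cell, H2-DM exchanges their peptide, and Ciita switches their genes on from a shared promoter element. In adipose tissue these genes are known mainly as products of resident immune cells.

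The comparison asked how the BAT transcriptome of mice differed 18 h after sonicated *P. gingivalis*, a periodontal bacterium, entered the blood. All mice were C57BL/6J, 12 weeks old and, by the study's methods, male. The 4 Co mice received saline alone, and the 4 Pg mice received the sonicate in 100 μL of saline, 100000000 CFU in the methods and 108 CFU as the labels print it. Interscapular fat of each mouse went onto 1 Agilent one-color array, and no allele, transgene or other agent is named for either group.

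Of 14 brown adipocyte genes, 11 lay above background on all 8 arrays, and the summed log2 level of the 12 tested was 19.20 to 19.30 in Co and 19.29 to 19.40 in Pg mice. However, *Ucp1*, the uncoupling protein that defines brown fat, and *Elovl3* lay above background on none of the 8 arrays. All 14 skeletal muscle genes lay above background on every array, at summed log2 levels of 21.38 to 21.50 in Co and 21.31 to 21.44 in Pg mice. Co arrays had 34760 to 35831 probes above background and Pg arrays 31132 to 34064. All arrays were on 1 slide and in 1 scan. Row 1 of the slide held Co arrays alone and row 2 Pg arrays alone, which means that row and group cannot be told apart. In a bulk sample, fewer cells of a type and less RNA per cell also cannot be told apart. Levels below are log2 of the quantile-normalized intensity, and a fold change is the difference of group means on that scale unless it is called a fold.

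The MHC class II genes were read by 8 probes, and the probe sequences of their defining chains are given first because the signal belongs to these 60-base stretches. The probe of *H2-Aa*, the alpha chain of I-A, lies at chr17:34421285-34421344 on the minus strand of mm9, the build in which the array files give coordinates. The *H2-Ab1* probe nearest the start of the transcript, A_55_P2741874, lies at chr17:34404357-34404416 on the plus strand. Both are read here from 5′ to 3′:
H2-Aa A_52_P343306: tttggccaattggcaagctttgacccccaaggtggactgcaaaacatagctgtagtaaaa
H2-Ab1 A_55_P2741874: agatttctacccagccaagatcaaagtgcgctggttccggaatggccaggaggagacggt

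*H2-Ab1*, the beta chain of I-A, had 4 probes, and 2 of them overlap by 51 bases close to the 3′ end of the transcript. A_55_P1962747 begins at chr17:34406296 and A_55_P2146560 begins 9 bases further on. They differ at 1 position of the overlap, T51C, counted from the 5′ end of A_55_P1962747, with the base of A_55_P2146560 last. The 30 shared positions around it are shown with that base in capitals:
H2-Ab1 A_55_P1962747: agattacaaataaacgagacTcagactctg
H2-Ab1 A_55_P2146560: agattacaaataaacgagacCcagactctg
These probes share their target, so they count as repeated readings of 1 transcript and not as independent genes.

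*H2-Aa* measured 7.62, 7.37, 8.33 and 8.05 on Co arrays 1 to 4 and 7.93, 10.01, 7.04 and 9.70 on Pg arrays 1 to 4. Pg 2 and Pg 4 stood above every Co array, Pg 1 lay among the Co arrays and Pg 3 lay below them all. The group means were 7.84 ± 0.43 (SD, n = 4) and 8.67 ± 1.42 (SD, n = 4), and the fitted log2 fold change was 0.83 with a standard error of 0.65. Against the Co mean, *H2-Aa* was 4.50-fold on Pg 2, 3.62-fold on Pg 4, 1.06-fold on Pg 1 and 0.57-fold on Pg 3.

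*H2-Ab1* had Pg 2 and Pg 4 as the 2 highest arrays on all 4 probes, and Pg 3 as the lowest on 3 of them. A_55_P1962747 gave 10.58, 10.12, 11.22 and 11.08 in Co and 10.95, 13.07, 10.06 and 12.76 in Pg mice, a log2 fold change of 0.96 with a standard error of 0.67. Its overlapping partner A_55_P2146560 gave 10.52, 9.89, 11.14 and 10.94 in Co and 10.63, 13.13, 9.92 and 12.60 in Pg mice, a difference of 0.94 with a standard error of 0.72. The base that differs between them came with nearly the same difference between groups. A_52_P683598 gave 0.85 with a standard error of 0.69, and A_55_P2741874, which begins at base 528, gave 0.83 with a standard error of 0.76. On Pg 2 the 4 probes lay 4.64-fold, 4.99-fold, 5.68-fold and 5.40-fold over their Co means, in the order A_52_P683598, A_55_P1962747, A_55_P2146560 and A_55_P2741874.

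*H2-Eb1*, the beta chain of I-E, followed. It measured 10.48, 9.90, 10.96 and 10.69 in Co and 10.59, 12.86, 9.86 and 12.52 in Pg mice, and the fitted log2 fold change was 0.95 with a standard error of 0.67. C57BL/6 mice are known to lack a working I-E alpha chain, so that this beta chain is read as RNA and not as a surface molecule. Pg 2 and Pg 4 reached 5.11-fold and 4.04-fold of the Co mean.

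The partners of the class II chains were high on the same arrays. *Cd74*, the invariant chain, measured 10.36, 9.83, 10.77 and 10.46 in Co and 10.32, 12.38, 9.44 and 12.22 in Pg mice, a difference of 0.73 with a standard error of 0.66. *H2-DMa*, the alpha chain of the peptide exchanger, measured 6.33, 6.10, 6.30 and 6.49 in Co and 6.21, 8.04, 5.94 and 7.75 in Pg mice, a difference of 0.68 with a standard error of 0.47. The Co arrays of *H2-DMa* lay closest together, with an SD of 0.16, and again Pg 2 and Pg 4 were the high pair, here 3.31-fold and 2.72-fold over the Co mean.

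**Figure D1:**
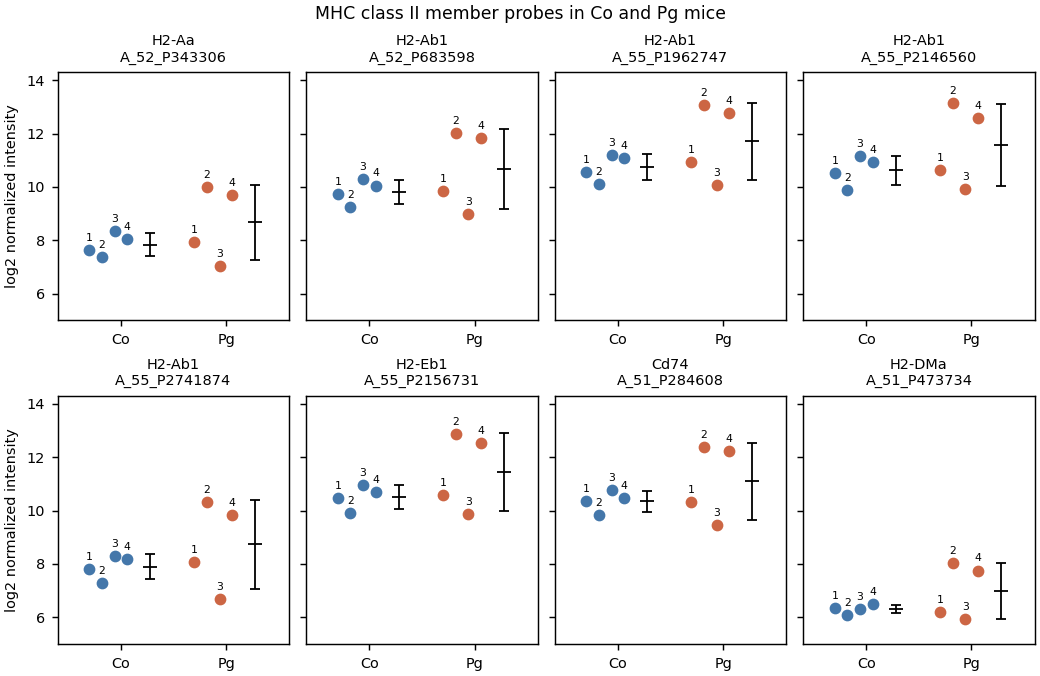
Log2 normalized intensity (y axis) of the 8 MHC class II probes on the 4 Co and 4 Pg arrays, with the replicate number above each point and the mean ± SD as a bar beside each group. All points are above background. In every panel Pg 2 and Pg 4 are the 2 highest points, while Pg 1 and Pg 3 lie within or near the Co range.

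All 8 class II probes were thus higher in the mean of the Pg mice, with log2 fold changes from 0.68 to 0.96 and a median of 0.84, and in all 8 the groups overlapped, where 15.8% of all tested probes had groups that did not. None of the 8 had a q under 0.1 or an unadjusted p under 0.05 in limma's moderated test. Of all 33819 tested probes, 7.82% had a q under 0.1 and 7722 an unadjusted p under 0.05. This contrast chose the genes, so nothing is read from these counts or from those without 1 array. The mean difference was carried by 2 of 4 Pg mice: over the 8 probes the median fold over the Co mean was 4.81 on Pg 2, 3.85 on Pg 4, 1.04 on Pg 1 and 0.592 on Pg 3. Leaving out Pg 2 lowered the 8 log2 fold changes to between 0.30 and 0.51, while leaving out Pg 3 raised them to between 1.02 and 1.51. In limma's fit without Pg 3 all 8 had an unadjusted p under 0.05, as had 7861 of 33819 tested probes. None of the 8 had a q under 0.1 there, against 7.03% of all tested probes. The 2 highest arrays were Pg 2 and Pg 4 in 8 of 8 probes, against 5.8% of all tested probes. This pair was picked after these values were seen, and 4 of the 8 probes are of *H2-Ab1*, so the 2 shares are no test. The array order from high to low was the same for *H2-Aa*, *H2-Eb1* and 3 of the 4 *H2-Ab1* probes.

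The spread between Pg mice was wide beside that of most tested probes. The SD over the Pg arrays was 1.06 to 1.66 for the 8 probes with a median of 1.45, where the median over all tested probes was 0.14, and 2.22% of all tested probes had an SD of at least 1.06. Over the Co arrays the median SD of the 8 probes was 0.45, against 0.14 for all tested probes. Thus Co mice also differed from each other in these genes, with Co 3 at a median of 1.37-fold and Co 2 at 0.663-fold of the Co mean.

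*Ciita*, the master transactivator of the class II genes, had 4 probes, and they did not tell the same story. A_66_P119948, close to the 3′ end of transcript variant 5 at chr16:10526458-10526517 (mm9), measured 5.34, 5.14, 5.76 and 5.38 in Co and 5.93, 7.59, 4.69 and 7.08 in Pg mice. This is the class II layout again, with Pg 2 and Pg 4 high at 4.54-fold and 3.19-fold over the Co mean, and Pg 3 the lowest and not above background. The log2 fold change was 0.92 with a standard error of 0.58. It was 0.50 without Pg 2 and 1.46 without Pg 3, where this probe had a q under 0.1. With normexp background correction it was 0.54 and with the median signal 0.59.

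A_55_P2035003, which was designed on a cDNA clone and lies at chr16:10492271-10492330, gave 4.79, 4.93, 4.92 and 5.32 in Co and 5.15, 4.93, 5.31 and 4.40 in Pg mice. Its groups overlapped, and the log2 fold change was -0.04 with a standard error of 0.21. This probe has no settled direction, as it gave 0.10 with 75th percentile scaling, 0.15 without normalization and 0.02 in the authors' values. The remaining pair was too dim to be tested. A_55_P2736700 was above background on Co 1 alone, and A_55_P2741198, upstream of A_66_P119948 on the same transcript variant, on Co 3 and on Pg 2, where it read 5.49, its highest value.

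The distance between array profiles puts a number on this likeness. Each probe was centred on its own mean over the 8 arrays, and the root mean square difference from the mean profile of the 8 class II probes was taken. The class II probes themselves lay 0.06 to 0.33 from that mean profile, with *H2-DMa* the farthest. *Ciita* A_66_P119948, which was not part of the mean, lay at 0.23, *Ciita* A_55_P2035003 at 1.20 and *Cd79b* at 1.49, where the mean profile has a root mean square of 1.01.

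The genes outside the member list whose profile was most like it were *Mpeg1* at 0.12, *Upb1* at 0.18, *H2-DMb1* at 0.20, *Cd52* at 0.24 and *Ptprc* (probe A_52_P677117) at 0.24, among 33806 other tested probes over 8 arrays. Mpeg1 is a pore-forming protein of macrophages, Upb1 an enzyme of pyrimidine breakdown, H2-DMb1 the beta partner of H2-DMa, Cd52 a small surface protein of leukocytes and Ptprc the CD45 phosphatase of all leukocytes. *Mpeg1* measured 7.61, 7.07, 8.09 and 7.80 in Co and 7.79, 9.55, 6.85 and 9.39 in Pg mice. *H2-DMb1* measured 7.34, 7.01, 7.94 and 7.44 in Co and 7.81, 9.30, 6.70 and 9.18 in Pg mice. Both repeat the pair of high Pg arrays. The likeness was taken over these same 8 arrays and says nothing of shared control. *Ptprc* itself depended on the probe: of 7 probes 3 were tested, and the brightest, A_55_P2716276, had a log2 fold change of 0.09 with a standard error of 0.13. The *Upb1* probe was above background on 4 Co arrays but on only 2 Pg arrays, and the other *Upb1* probe was too dim to be tested.

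**Figure D2:**
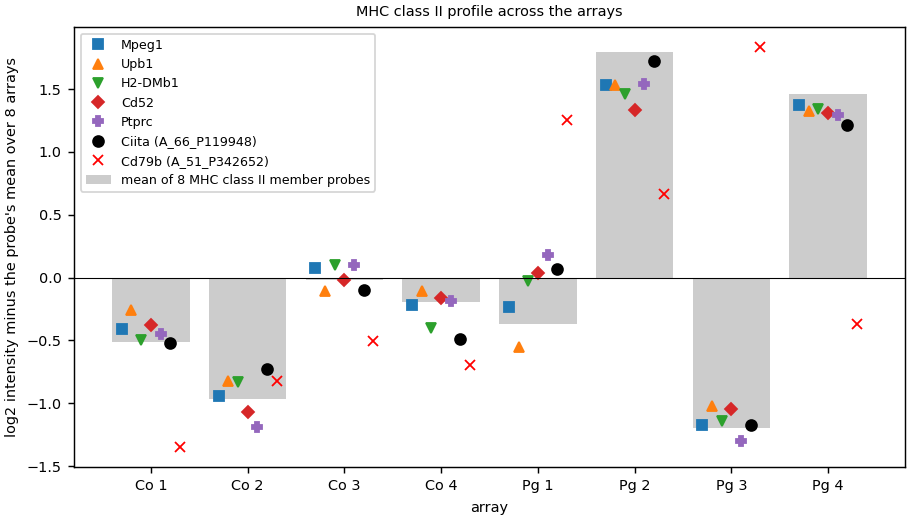
Log2 intensity minus the mean of the probe over the 8 arrays (y axis) for each array (x axis). Bars are the mean of the 8 MHC class II probes, and markers are the 5 most similar genes, *Ciita* probe A_66_P119948 and *Cd79b*. The markers of the similar genes and of *Ciita* follow the bars, high on Pg 2 and Pg 4 and low on Pg 3 and Co 2, whereas *Cd79b* is highest on Pg 3.

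Class II genes share an upstream promoter element with an X box, bound by the RFX complex, and a Y box, an inverted CCAAT sequence bound by NF-Y, and Ciita docks on the proteins there. The 150 bases before the annotated start of *H2-Aa* and *H2-Eb1* are shown because both motifs were found there and in no other member promoter at hand. They come from RefSeq on GRCm38.p6, a different build from the probe coordinates, where *H2-Aa* is chr17:34287824-34287973 on the minus strand and *H2-Eb1* is chr17:34305717-34305866 on the plus strand. Capitals mark CTNGCAACT, the start of the X box, and then CTGATTGG, the Y box:
H2-Aa: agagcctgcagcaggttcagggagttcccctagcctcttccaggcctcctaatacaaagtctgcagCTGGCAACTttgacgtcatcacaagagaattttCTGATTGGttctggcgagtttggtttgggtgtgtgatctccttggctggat
H2-Eb1: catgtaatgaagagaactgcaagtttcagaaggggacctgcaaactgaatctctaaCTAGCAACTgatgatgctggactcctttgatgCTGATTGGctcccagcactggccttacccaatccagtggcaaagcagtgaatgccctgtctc

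The X box letters begin 84 bases before the start of *H2-Aa* and 94 before that of *H2-Eb1*, and the Y box letters 51 and 62 bases before it. Both strands of 32851 promoters of 300 bases were searched. CTGATTGG occurred in 4.1% of them, CTNGCAACT in 0.898% and both in 0.0487%, and the letters of the second motif were set after these 2 promoters had been read. Of the 9 genes, 5 had a promoter in the table (*Cd79a*, *Cd22*, *H2-Aa*, *H2-Eb1* and *H2-DMa*), and neither motif was found in the windows of *Cd79a*, *Cd22* or *H2-DMa*. A match is a run of letters and not a measured binding site, and its part in the array values was not tested.

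Of 18 genes for promoter factors and *Ciita* regulators, 1 had Pg 2 and Pg 4 as its 2 highest arrays, *Ifngr1*, a chain of the interferon gamma receptor and not a promoter factor. All were tested, 8 were higher and 10 lower in Pg mice, and the median log2 fold change was -0.04, equal to that of all tested probes. *Nfyb*, a subunit of NF-Y, fell from 10.03, 10.07, 10.16 and 10.09 to 9.72, 9.54, 9.83 and 9.68, a log2 fold change of -0.40 with a standard error of 0.07 (limma, q = 0.05), and 2 of its 4 tested probes passed. *Ep300*, a histone acetyltransferase that works with Ciita, fell from 9.31, 9.15, 9.21 and 9.45 to 8.70, 8.65, 8.88 and 8.76, a log2 fold change of -0.53 with a standard error of 0.09 (limma, q = 0.04), and 1 of its 3 tested probes passed. The groups did not overlap for either, and both changes were under 1.5-fold. In all, 6% of tested probes were lower in Pg mice with a q under 0.1. *Nfyb* lost its call without Co 2, Co 3, Co 4, Pg 1 or Pg 4, and *Ep300* without Co 3. Without normalization between arrays both lost it, with q = 0.18 for *Nfyb* and q = 0.16 for *Ep300* in limma.

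The largest positive value among these factors was *Prdm1*, a repressor of *Ciita* in plasma cells, at 0.65 with a standard error of 0.26, with Pg 1 the high array at 7.08 above a range of 5.84 to 5.99 in Pg 2 to Pg 4. The largest negative value was *Rfx5*, the large subunit of the RFX complex, at -0.93 with a standard error of 0.47. Co 1 read 7.86 where the other 7 arrays read 5.01 to 6.08, and the groups did not overlap, with the lowest Co array at 5.56 and the highest Pg array at 5.55. Neither passed the test.

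Among the other genes of the class II pathway, 8 of 11 were tested, 6 were higher and 2 lower, the median log2 fold change was 0.13 and none had a q under 0.1, although 2 had an unadjusted p under 0.05. *H2-DMb1* had the largest value, 0.82 with a standard error of 0.57, and *Ctss*, the protease that trims the invariant chain, stood at 0.62 with a standard error of 0.43. *Ctss* measured 10.26, 9.61, 10.71 and 10.64 in Co and 10.68, 11.70, 9.84 and 11.48 in Pg mice, with Pg 2 and Pg 4 high once more. *Ctsl*, a lysosomal protease, had the lowest value, -0.01 with a standard error of 0.10. *H2-DMb2*, *H2-Oa* and *H2-Eb2* lay above background on no array.

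The B cell receptor genes were read by 6 probes, of which that of *Cd79b* and 1 of *Cd22* lay above background on all 8 arrays. *Cd79b* had 1 probe, at chr11:106172780-106172839 on the minus strand of mm9, of which the first 30 bases are:
Cd79b A_51_P342652: agagacttgttggaatctgcaaatggactc
It measured 5.29, 5.81, 6.12 and 5.93 in Co and 7.89, 7.29, 8.47 and 6.26 in Pg mice and was above background on all 8 arrays. Every Pg array lay above every Co array, by a narrow margin in Pg 4. The means were 5.79 ± 0.36 (SD, n = 4) and 7.48 ± 0.94 (SD, n = 4), and the fitted log2 fold change was 1.69 with a standard error of 0.44. Against the Co mean, Pg 3 reached 6.40-fold, Pg 1 4.28-fold, Pg 2 2.84-fold and Pg 4 1.39-fold, so that the Pg array with the highest *Cd79b* was the one with the lowest class II signal.

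*Cd79b* was the 1 member probe of 13 with a q under 0.1 and the 1 DEG (q under 0.1 and a fold change above 1.5). Over all tested probes 7.82% had a q under 0.1, 1.82% higher and 6% lower in Pg mice, and 1.61% were DEGs, 0.313% higher and 1.3% lower. The balance of DEGs, 106 higher and 440 lower, depended on the processing. It was 137 higher and 146 lower with 75th percentile scaling, 20 and 7 without normalization, 66 and 28 with normexp, 75 and 33 with the median signal, and 60 and 46 in the authors' values. Groups that did not overlap were seen in 15.8% of tested probes, 4.83% with Pg mice higher and 11% with Pg mice lower. Since this contrast chose the genes, nothing is read from the count. The q of *Cd79b* stayed under 0.1 in 1 of the 8 fits with 1 array left out, that without Pg 4, and ranged from 0.08 to 0.17 over them, while the log2 fold change ranged from 1.36 to 2.09. It was 1.07 with normexp, 1.09 with the median signal and 1.22 in the authors' values, against 1.69.

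*Cd79a*, its partner, was too dim to be compared. The single *Cd79a* probe spans more than 1 exon, since its 60 bases cover 258 bases of genome at chr7:25684357-25684614 on the plus strand of mm9:
Cd79a A_66_P120987: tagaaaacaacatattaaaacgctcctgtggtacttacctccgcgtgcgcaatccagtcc
It measured 5.27 on Co 1, where it was above background, and 2.66, 2.64 and 2.33 on the other Co arrays and 2.09, 1.98, 1.98 and 1.96 on the Pg arrays, where it was not. The receptor needs both chains at the B cell surface, and here the probe of 1 chain was above background in all mice and that of the other in a single Co mouse. No fold is given, since every Pg array has only a bound.

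*Cd22* had 4 probes, of which 1 lay above background on all 8 arrays and the rest on 4 or fewer. A_51_P448140 at chr7:31651590-31651649 and A_52_P466268, which spans exons over 1325 bases of genome at chr7:31661143-31662467, are both on the minus strand of mm9 and begin at bases 2745 and 670 of their transcript. A_55_P2016004, the probe above background throughout, at chr7:31651249-31651308, begins at base 3211 of its transcript, and bases 8 to 37 of it are shown with an AACC repeat of 4 units in capitals:
Cd22 A_51_P448140: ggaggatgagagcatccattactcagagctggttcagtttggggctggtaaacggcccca
Cd22 A_52_P466268: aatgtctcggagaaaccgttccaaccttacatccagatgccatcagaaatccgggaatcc
Cd22 A_55_P2016004: gaaaAACCAACCAACCAACCaaacaaaaaa

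A_55_P2016004 measured 9.31, 9.03, 9.00 and 8.78 in Co and 9.27, 9.24, 9.06 and 8.94 in Pg mice, and its log2 fold change was 0.10 with a standard error of 0.13. A_51_P448140 was above background on Co 1 at 4.23 and Co 2 at 4.97 and on no Pg array, where it read 2.09 to 4.10. A_52_P466268 was above background on no array. The probe with the repeat was above background in all 8 mice, and its groups overlapped. Whether the repeat had a part in its signal was not tested.

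The last *Cd22* probe, A_55_P2163795, was designed on a predicted transcript variant. It was above background on Co 1, Co 2 and Co 4 and, among Pg mice, on Pg 4, where it read 6.97 against 3.03 to 4.24 on the other Pg arrays. Its fitted log2 fold change was 0.39 with a standard error of 0.80, but since 3 of the 4 Pg values were not above background no direction is read from it.

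**Figure D3:**
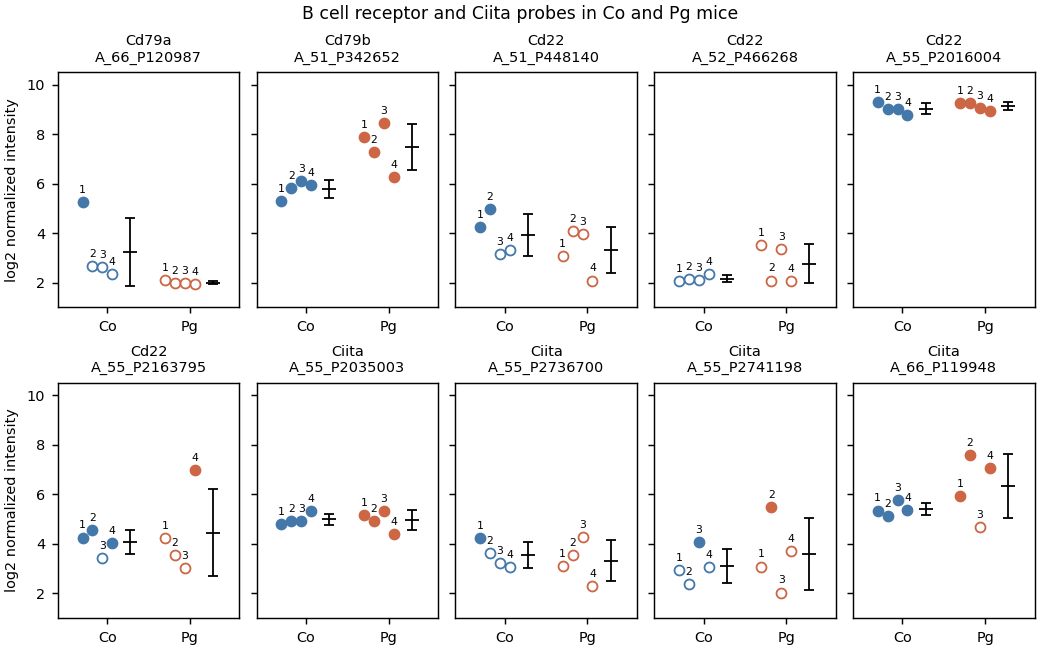
Log2 normalized intensity (y axis) of the 6 B cell receptor probes and the 4 *Ciita* probes on the Co and Pg arrays, with the replicate number above each point. Filled points are above background, open points are not, and bars beside each group are the mean ± SD. *Cd79b* is the only panel with all 8 points filled and no overlap of the groups, and *Cd79a* has 1 filled point, Co 1.

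Over all 13 member probes tested, 12 had a higher mean in Pg mice and 1 a lower one, with a median log2 fold change of 0.83 against -0.04 over all tested probes, of which 42.3% were above 0 and 57.7% below. Under no normalization between arrays the median of all probes was 0.03, and under the other scalings tried it lay between -0.03 and -0.02. This is small beside the median of the members but not beside the values of *Ciita* A_55_P2035003, which turned, and *Cd22* A_55_P2016004. The member median fell to 0.40 without Pg 2 and rose to 1.37 without Pg 3.

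**Figure D4:**
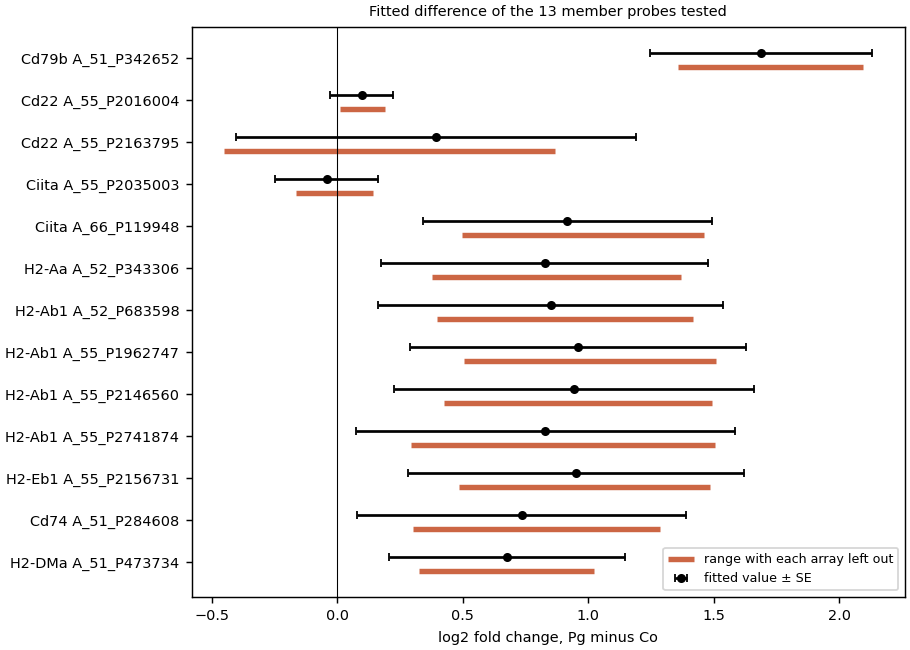
Fitted log2 fold change of Pg over Co (x axis) for the 13 tested probes, with the standard error as a black bar and the range over the 8 fits with 1 array left out as an orange bar. *Cd79b* stands at 1.69, the class II probes between 0.68 and 0.96 with wide errors, and *Cd22* A_55_P2163795 and *Ciita* A_55_P2035003 have ranges that cross 0.

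Other B cell identity genes matched by name gave no call. Of 20 identity genes apart from the members, 17 were found on the array by name, 8 were tested. The fitted value was above 0 for 5 and below 0 for 3, and the median log2 fold change was 0.14. None had a q under 0.1 in limma's test, and 1 had an unadjusted p under 0.05. *Ms4a1*, which encodes CD20, measured 5.38, 5.99, 5.29 and 5.13 in Co and 5.17, 5.67, 6.09 and 5.53 in Pg mice, a log2 fold change of 0.17 with a standard error of 0.24.

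*Ly86*, a surface partner of a Toll-like receptor homolog on B cells and macrophages, had the largest value of the list, 0.59 with a standard error of 0.47, and was the 1 gene of the 8 with Pg 2 and Pg 4 as its highest arrays. *Spib*, *Cxcr5*, *Tnfrsf13c*, *Bank1* and *Igll1* were above background on no array. The summed log2 level of the 8 genes was 11.36 to 11.47 in Co and 11.52 to 11.81 in Pg mice. Much of this sum is *Cd37*, at 10.49 to 10.85 in Co and at 10.88 or more in Pg mice. The part of B cell number in the *Cd79b* values was not tested.

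Immunoglobulin constant regions carry the B cell and plasma cell product itself. *Ighm*, *Ighd* and *Igkc* were not matched by name, and after this was seen the array's descriptions were searched for constant regions, which gave 19 probes of 11 regions. Of these, 10 were tested, 5 were higher and 5 lower. The 3 probes of heavy constant mu had log2 fold changes of -0.11, -0.09 and 0.27. The brightest of them, A_55_P2745508, had Pg 2 at 8.23 and Pg 4 at 7.95 as its highest arrays and Pg 3 at 6.74 as its lowest, as most class II probes did. The other mu probes did not share this order. A_55_P2745692 was highest on Co 1 at 7.38 and lowest on Pg 1 at 6.16. A_51_P485421 was highest on Pg 2 at 6.32, then on Co 3 at 6.07, and lowest on Pg 1 at 4.77. The brightest kappa constant probe, A_55_P2727321, fell from 10.03, 10.01, 9.92 and 9.90 to 9.84, 9.77, 9.66 and 9.63, a log2 fold change of -0.24 with a standard error of 0.07 (limma, q = 0.099), and its groups did not overlap. It lost this call with any 1 of the 8 arrays left out, with 75th percentile scaling (limma, q = 0.104), without normalization (limma, q = 0.35) and without the filter on dim probes (limma, q = 0.13). The other kappa probe was above background on 2 Co arrays and 1 Pg array. Of 6 plasma cell genes 4 were tested, all 4 higher with none called and none at an unadjusted p under 0.05, and *Jchain* and *Tnfrsf17* were above background on no array. *Derl3* had the largest value of these, 0.20, and *Mzb1* the smallest, 0.08.

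The genes that carry the B cell receptor signal inward are shared with myeloid cells, and 20 of 21 were tested. The value was above 0 for 13 and below 0 for 7, and the median log2 fold change was 0.16. *Plcg2*, the phospholipase C of this pathway, rose from 7.61, 7.70, 7.79 and 7.91 to 8.20, 8.78, 8.09 and 8.37, a log2 fold change of 0.61 with a standard error of 0.15 (limma, q = 0.08), and was the 1 DEG of the list. It kept its call in 1 of the 8 fits with 1 array left out, that without Pg 3, and lost it without normalization between arrays (limma, q = 0.17) and without the filter on dim probes (limma, q = 0.12). *Ptpn6*, the phosphatase that Cd22 recruits, had the lowest value, -0.28 with a standard error of 0.09, and did not pass the test. In 9 of the 20 genes, among them *Lyn*, *Syk*, *Btk*, *Blnk* and *Vav1*, Pg 2 and Pg 4 were the 2 highest arrays. *Blk*, a kinase largely restricted to B cells, was above background on no array.

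Of 13 macrophage genes 12 were tested, 9 of them above 0 and 3 below. The median log2 fold change was 0.22, and none had a q under 0.1, with 1 at an unadjusted p under 0.05. In 8 of the 12 macrophage genes Pg 2 and Pg 4 were the 2 highest arrays. *Lyz2*, the lysozyme of myeloid cells, measured 12.91, 12.15, 13.04 and 13.15 in Co and 12.98, 14.22, 12.32 and 14.14 in Pg mice. *Adgre1*, which encodes F4/80, measured 7.05, 6.61, 7.77 and 7.67 in Co and 7.43, 8.52, 6.85 and 8.27 in Pg mice. Both share with the class II probes the low Co 2 and Pg 3 and the high Pg 2 and Pg 4.

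*Cd14*, the endotoxin co-receptor, had the largest value of the list, 0.99 with a standard error of 0.83. On this probe Pg 4 stood apart at 11.28. The second probe of *Cd14* read 7.88 on that array and 8.47 and 8.17 on Pg 1 and Pg 2, and its log2 fold change was 0.55 with a standard error of 0.21 (limma, q = 0.18). *Mertk*, a receptor for the uptake of dying cells, had the lowest at -0.26 with a standard error of 0.11. The summed level of the macrophage genes was 15.15 to 15.38 in Co and 15.08 to 15.78 in Pg mice. Much of this sum is *Itgam*, at 14.47 to 14.76 in Co and 14.48 to 14.66 in Pg mice, and *Lyz2*, so that it says little of the other genes, and the part of macrophage number in the class II values was not tested.

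Of 14 dendritic cell genes 12 were tested. Of these 9 had a value above 0 and 3 below, the median was 0.14, none was called and 1 had an unadjusted p under 0.05. For 5 of the 12, *Flt3*, *Itgax*, *Cd80*, *Cd86* and *Irf8*, Pg 2 and Pg 4 were the highest arrays, against 5.8% of all tested probes. Of the 4 Pg arrays, *Itgax* and *Cd86* were above background on 2 and *Flt3* on 3, so some of their low values are near background. *Itgax*, which encodes CD11c, measured 4.18, 4.80, 5.32 and 4.96 in Co and 4.15, 6.19, 3.98 and 6.39 in Pg mice. *Batf3*, a factor of cross-presenting dendritic cells, had the largest value at 1.86 with a standard error of 0.98, on Pg arrays that ranged from 4.55 to 9.99, and *Ccr7* the lowest at -0.53 with a standard error of 0.19. *Clec9a* was above background on no array. The summed level was 15.77 to 16.06 in Co and 15.89 to 16.02 in Pg mice, but it is nearly that of *Siglech* alone (15.74 to 16.04 and 15.85 to 15.99) and so does not reflect the other genes of the list. The part of dendritic cell number in the class II values was not tested.

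Of the T cell and lymph node genes, 1 of 12 tested had Pg 2 and Pg 4 as the 2 highest arrays. Of 12 T cell genes 7 were tested, 3 higher and 4 lower, and *Cd2* alone had Pg 2 and Pg 4 as its highest arrays. *Zap70*, the kinase of the T cell receptor, rose from 7.76, 8.04, 7.63 and 7.60 to 8.50, 8.77, 8.45 and 8.44, a log2 fold change of 0.78 with a standard error of 0.12 (limma, q = 0.04), and both of its probes passed. It lost its call without Co 3. *Cd247*, the zeta chain, had the lowest value at -0.58 with a standard error of 0.20, and *Cd3g* was above background on no array. Of 9 lymph node stroma genes 5 were tested, none called and 1 at an unadjusted p under 0.05, and in none were Pg 2 and Pg 4 the 2 highest arrays. *Ccl19*, a chemokine of lymph node stroma, had the largest value at 1.00 with a standard error of 0.54, high on Pg 1 at 8.38 and on Pg 2 at 8.76, and *Clec4g* the lowest at -0.42 with a standard error of 0.13.

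Of the tissue genes, 9 of 12 brown adipocyte genes were higher and 3 lower with none called and 3 at an unadjusted p under 0.05, from *Dio2*, which activates thyroid hormone, at 0.59 to *Ppargc1a*, a coactivator of thermogenesis, at -0.36. Of the 14 muscle genes 13 were lower and 1 higher. *Atp2a1*, the calcium pump of fast fibres, fell by 0.44 on the log2 scale with a standard error of 0.06 (limma, q = 0.04), a call lost without Co 3 and, at q = 0.13, without normalization. *Myh4* had the lowest value at -0.77 with a standard error of 1.37, and *Tnnt3* the highest at 0.01. The fast myosin *Myh4* was lowest on Pg 1 at 11.38 and Co 3 at 13.38 and at 14.38 to 17.07 on the other arrays. Pg 2 and Pg 4 were the 2 highest arrays for 1 of the 12 brown adipocyte genes, *Dio2*, and for 1 of the 14 muscle genes, *Mylpf*, against 5.8% of all tested probes.

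**Figure D5:**
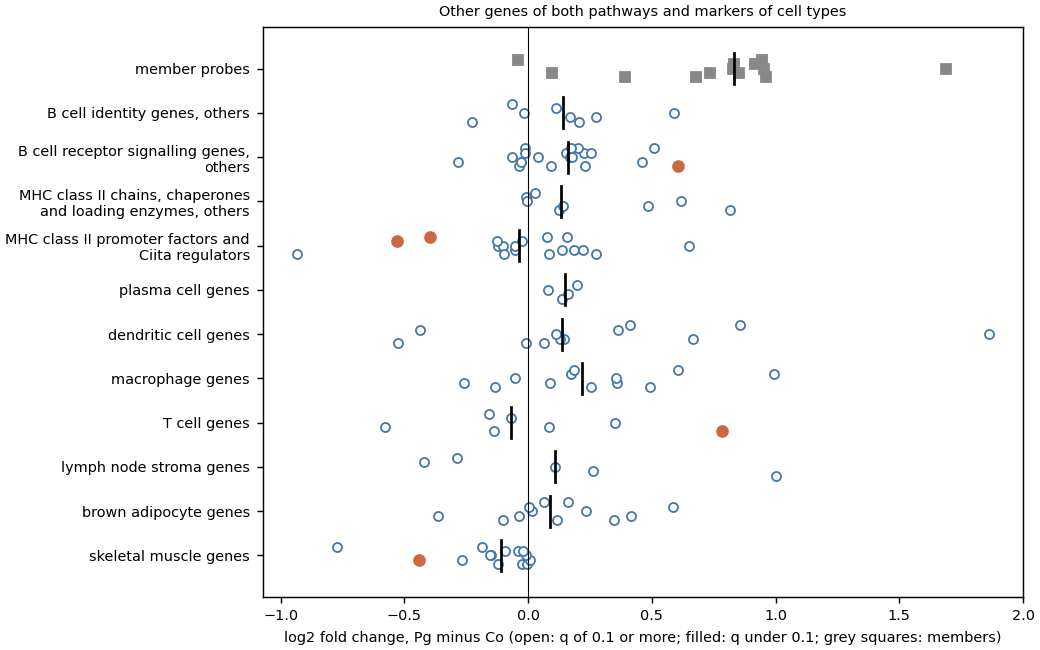
Fitted log2 fold change of Pg over Co (x axis) for the tested genes of each fixed list, 1 probe per gene, with the median as a black line. Filled points have a q under 0.1, open points do not, and grey squares are the 13 member probes, shown for scale with no test. *Zap70*, *Plcg2*, *Nfyb*, *Ep300* and *Atp2a1* are the 5 filled points, and the list medians lie between -0.11 and 0.22 while that of the members is 0.83.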

How the data were processed

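RNA of 4 Co and 4 Pg mice was measured on 8 Agilent one-color arrays. The authors deposited the Feature Extraction 11.0.1.1 output, with the Cy3 intensity of each spot and no normalization between arrays. A table that the authors deposited with their quantile-normalized log2 values was used as an alternative, and its columns of fold changes, p-values, q-values and statistics were not used. The processed intensities of a probe's spots were averaged without population outliers (90 to 150 spots per array), quantile-normalized, raised to at least 1 and log2-transformed in R 4.3.3. Probes that passed background on 4 or more arrays were fitted with limma 3.58.1 (lmFit, eBayes, two-sided, no covariate) and adjusted by Benjamini-Hochberg. The study's own thresholds, q under 0.1 with more than a 1.5-fold change, defined DEGs. The fit was checked on simulated data. The p-values reflect the spread between these mice, moderated by that of all tested probes, and the small number of arrays limits precision. They do not measure an effect of slide row, which cannot be told apart from group.

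The members and the gene lists were chosen with earlier results of these data known. Lists hold 1 probe per gene, the brightest tested. Named genes are all members with every probe, the list genes with a q under 0.1, the largest and smallest value of each list, genes above background on no array, and the 5 genes most like each member group over the 8 arrays. Genes of the class II layout such as *Lyz2*, *Adgre1*, *Itgax* and *Ctss*, and *Ms4a1*, were named after their values were seen. The lowest value of the B cell identity list is not reported here. Same-numbered Co and Pg arrays deviated with correlations of 0.06, -0.03, -0.07 and 0.18, so that the numbers were not taken as pairs. Gene names came from RefSeq accessions for 32994 probes and from the array otherwise. Alternatives were other background corrections and scalings, other filters, a trend in eBayes, outlier spots kept, a replicate block, the authors' table and each array left out.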

Additional observations from a re-analysis of the deposited data

Results flagged for a closer look

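Each group of 4 arrays was searched for a single array far from the others by Dixon's ratio of gap to range, which chance exceeds in about 1 of 20 groups. Of 36 groups (18 member probes in Co and in Pg mice), 2 were found, both of *Cd79a* A_66_P120987. Co 1 read 5.27 and was above background, where the other Co arrays read 2.33 to 2.66. Pg 1 read 2.09 against 1.96 to 1.98 on the other Pg arrays, and none of these 4 values is above background. The high Pg 2 and Pg 4 of the class II probes did not meet this criterion, which looks for 1 array.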

How the results depend on the processing

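The count of 12 member probes higher in Pg mice stayed within 1.5 times under all 18 alternatives (9 to 13; the lowest, 9 of 9, in the authors' table, which holds fewer of the 13 probes), as did the count of higher list genes (70, range 58 to 81) and the direction of the member median (0.83, range 0.40 to 1.37). The 8 class II probes had no value below 0 in 141 refits, but no refit left out Pg 2 and Pg 4 together. The refits reuse the arrays on which the genes were chosen, so this constant sign carries no test. Member probes with a q under 0.1 (1) numbered 0 without normalization, without a filter and with the replicate block, and 0 to 1 with each array left out (*Cd79b* without Pg 4, *Ciita* A_66_P119948 in its place without Pg 3). DEGs (546) numbered 283 with 75th percentile scaling, 27 without normalization, 94 with normexp, 108 with the median signal, 318 with probes above background on all 8 arrays, 106 in the authors' log2 values and 3 to 697 with each array left out (3 without Co 3, 697 without Pg 3). With replicate number as a block, limma called 0 DEGs and 0 probes at a q under 0.1, with 7392 at an unadjusted p under 0.05 (7722 without the block). The numbers are not known to pair the mice, and 2 of the 4 Co arrays matched their own number best. The cause of these shifts was not tested.

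The arrays limit what can be said of *Cd79a*, *Cd22* and *Ciita*, whose probes were mostly near background. Of the named calls, *Cd79b* and *Plcg2* held in 1 of the 8 fits with 1 array left out, *Nfyb* in 3, *Ep300*, *Zap70* and *Atp2a1* in 7, and the kappa constant probe in 0. Without normalization all of these but *Zap70* were lost, and with the replicate block all were.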

Other observations

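The 2 B cell receptor probes above background on all 8 arrays, *Cd79b* and *Cd22* A_55_P2016004, gave a mean profile with a root mean square of 0.55 that was highest on Pg 3 and Pg 1. It is mostly that of *Cd79b*, whose own root mean square was 1.05, against 0.17 for the *Cd22* probe, which was highest on Co 1. The 5 probes most like it were an intergenic noncoding probe and one of *Fam110b*, both at a root mean square difference of 0.19, the cDNA clone AK084558 at 0.22, *Cdh8* at 0.23 and *D430022A14Rik* at 0.24. *Cdh8*, a cadherin, measured 6.22, 6.24, 6.18 and 5.95 in Co and 6.98, 6.69, 6.94 and 6.32 in Pg mice. The likeness was taken over the same 8 arrays on which *Cd79b* was described.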
